A study of Mus musculus with 6 samples.

Results

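Adhesion G protein-coupled receptors were followed in mouse dorsal pancreatic buds cultured with BET bromodomain inhibitors. They were taken by name, as every row whose gene symbol was Adgra, Adgrb, Adgrd, Adgre, Adgrf, Adgrg, Adgrl or Adgrv with a number, or Celsr1, Celsr2 or Celsr3. This gave 28 of the 24010 named genes on the arrays. RefSeq lists 30 such genes, and the remaining 2, Adgrf3 and Adgrg5, were not analysed here. One member, Adgrg6, was chosen by its array intensities, which were far lower under both inhibitors than in controls, so its difference from the controls is described with no test, and the other 27 genes are the comparison.

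Treated buds received JQ1 at 100 nM or I-BET151 at 500 nM, and the control buds, called CTRL, received 0.1% DMSO, the solvent. Buds of E11.5 embryos were cultured for 24 h, 10 buds were pooled for an array, and each group had 2 arrays. Strain and genotype are not given in the sources used here, nor whether the pools came from separate litters, and the spread behind the p-values, that between pools, may therefore be technical. JQ1 and I-BET151 are small molecules that occupy the acetyl-lysine pocket of the BET proteins and displace these chromatin readers from acetylated histones. The doses differ, so a difference between the compounds cannot be told apart from a difference in dose.

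The values are RMA intensities on a linear scale, in whole numbers. They rank samples within a gene and not genes against each other, because each row has its own probes. Array medians were 54 and 54 under JQ1, 55 and 55 under I-BET151, and 56 and 57 in CTRL buds. Each treated array thus had a lower median than both controls, and the main fit did not centre them. Arrays correlated at 0.990 to 0.996 across all named genes on the log2 scale. Pdx1, a defining gene of the pancreatic epithelium, was measured at 244 and 330 under JQ1, 246 and 281 under I-BET151, and 252 and 228 in CTRL buds. Cpa1, an enzyme gene of its tips, was at 2665 and 2568 under JQ1, 3046 and 3010 under I-BET151, and 2925 and 3183 in CTRL buds. No member reached the lowest value of the arrays, 5. Members lay between 9 and 1151, and 11 of them stayed below 54, the lowest array median, on every array, so that rounding makes coarse steps in their values.

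Adhesion receptors join a long extracellular region, rich in cell-contact and matrix-binding modules, to a membrane domain of the G protein-coupled type. Most are cut by their own GAIN domain at a site just outside the membrane, and the peptide exposed when the outer fragment is displaced can act as a tethered agonist. Members are known for roles in Schwann cells, vessels, blood cells and planar polarity of epithelia.

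Adgrg6, also called Gpr126, is the receptor through which Schwann cells raise cAMP to begin myelination, and it also has roles in heart and inner ear development. Its signal was 56 and 50 on the JQ1 arrays, 65 and 74 on the I-BET151 arrays, and 277 and 259 on the CTRL arrays. All 4 treated arrays lay far below both control arrays, and the JQ1 arrays lay below the I-BET151 arrays. The means were 53 ± 4.24 under JQ1, 69.5 ± 6.36 under I-BET151 and 268 ± 12.7 in CTRL buds (SD, n = 2 each), so the signal was 5.06-fold lower under JQ1 and 3.86-fold lower under I-BET151. The log2 changes were -2.34 ± 0.10 and -1.95 ± 0.10 (SE from the fit). Its log2 change was the lowest of the 28 members under each inhibitor, but it was chosen for these values, so the rank is no separate result. In whole buds, fewer cells of a type and less RNA per cell cannot be told apart.

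Promoters were examined for the members with a window in RefSeq. RefSeq windows of 250 bases before the start were found for 21 of the 28 genes, 25 windows in all. The 5 below, from GRCm38.p6, are of Adgrg6 and of Adgrl4, Adgrf5, Adgrg1 and Adgrg3, which were called lower under JQ1 (tests below). They are shown because the genes moved in the same direction but differ in the density of CG dinucleotides, which are in capitals. The Adgrg6 window (chr10:14545037-14545286, minus strand) holds 32 of them, the Adgrl4 window (chr3:151437632-151437881, plus strand) 5, the Adgrf5 window (chr17:43389216-43389465, plus strand) 7, the Adgrg1 window (chr8:94976859-94977108, plus strand) 4 and the Adgrg3 window (chr8:95017442-95017691, plus strand) 7.
Adgrg6: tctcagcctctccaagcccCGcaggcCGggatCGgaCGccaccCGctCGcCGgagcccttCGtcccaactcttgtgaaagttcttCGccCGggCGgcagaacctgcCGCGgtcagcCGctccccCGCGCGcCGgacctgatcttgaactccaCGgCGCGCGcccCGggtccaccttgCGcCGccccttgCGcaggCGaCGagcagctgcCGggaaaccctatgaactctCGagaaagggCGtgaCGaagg
Adgrl4: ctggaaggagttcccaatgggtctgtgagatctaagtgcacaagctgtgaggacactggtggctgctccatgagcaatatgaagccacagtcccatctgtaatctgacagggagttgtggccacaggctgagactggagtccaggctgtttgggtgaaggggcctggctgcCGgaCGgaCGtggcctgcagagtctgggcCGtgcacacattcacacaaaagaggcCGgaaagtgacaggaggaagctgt
Adgrf5: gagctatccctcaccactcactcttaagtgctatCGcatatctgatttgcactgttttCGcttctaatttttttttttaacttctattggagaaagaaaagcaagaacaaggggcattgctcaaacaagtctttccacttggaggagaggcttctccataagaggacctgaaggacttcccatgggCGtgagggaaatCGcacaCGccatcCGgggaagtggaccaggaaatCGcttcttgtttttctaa
Adgrg1: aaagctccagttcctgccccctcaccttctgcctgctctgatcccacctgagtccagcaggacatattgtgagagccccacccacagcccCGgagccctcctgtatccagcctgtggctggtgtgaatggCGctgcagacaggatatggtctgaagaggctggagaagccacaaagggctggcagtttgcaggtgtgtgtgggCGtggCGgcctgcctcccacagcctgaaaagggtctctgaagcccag
Adgrg3: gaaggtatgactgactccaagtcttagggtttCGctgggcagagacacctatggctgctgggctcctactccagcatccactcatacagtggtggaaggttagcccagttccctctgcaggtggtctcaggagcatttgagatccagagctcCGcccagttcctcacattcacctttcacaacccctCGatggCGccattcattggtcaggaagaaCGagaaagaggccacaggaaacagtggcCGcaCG

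The Adgrg6 promoter was CpG-dense: 4.58% of all 32851 windows held at least as many CG dinucleotides. The 6 windows of Adgrl4, Adgrf5, Adgrg1 and Adgrg3, with a second window each for Adgrf5 and Adgrg1, held 4 to 7, and 57% of all windows held 7 or fewer. The other 16 members with a window had 0 to 36, with a median of 16, and 6 of their 18 windows held 7 or fewer. Among them, those with a lower signal under both inhibitors had 26 (Adgrg2), 15 (Adgra1), 14 (Adgrb3), 2 (Adgrf1) and 0 (Adgrg4), and none was called. The called members Adgre5 and Celsr1 had no window. Short motifs were searched on both strands. TATAAA was present in 2 of the 25 member windows, both from genes that were not called (Adgrl2 and Adgrl3), against 12.4% of all windows. GGAAGT, a core bound by ETS factors, was in 3 member windows (Adgrb3, Adgrf1 and the Adgrf5 window shown, which has it 2 times) against 19.7% of all windows. CACGTG was in none of the 25, against 6.02% of all windows. These matches describe the letters in the windows only.

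**Figure D1:**
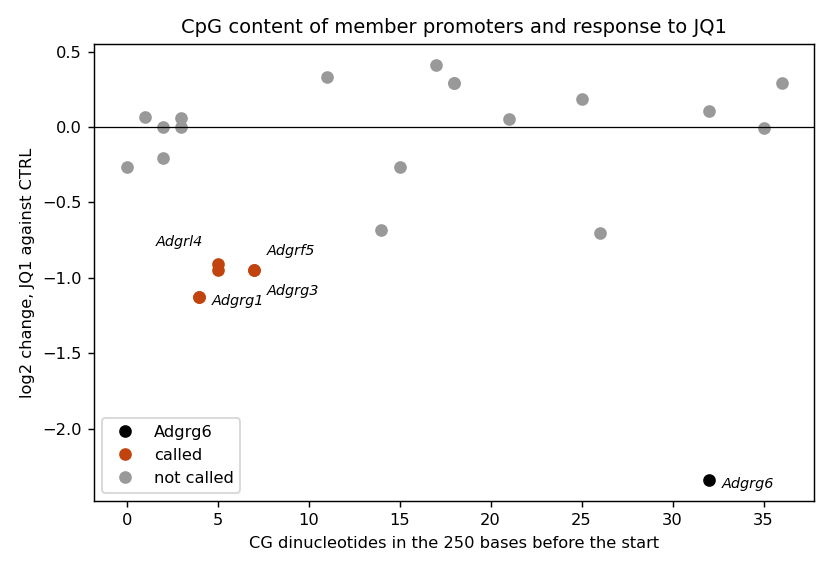
Number of CG dinucleotides in the 250 bases before the start (x axis) against the log2 change under JQ1 against CTRL (y axis) for the 25 windows of 21 adhesion receptor genes; each point is a window, so genes with several windows appear more than once. Adgrg6 stands at 32, while the 6 windows of the called genes Adgrl4, Adgrf5, Adgrg1 and Adgrg3 stand at 4 to 7.

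Changes were tested with limma on the log2 intensities of all 24010 genes, with Benjamini-Hochberg adjustment, with an adjusted p under 0.05 as the threshold for a call. Under JQ1, 6 of the 27 other members were called: Adgre5, Adgrf5, Adgrg1, Adgrg3 and Adgrl4 fell and Celsr1 rose. Of all genes, 3.8% were called under JQ1, 2.67% falling and 1.13% rising. Under I-BET151, 4 were called: Adgrf5, Adgrg3 and Adgrl4 fell and Celsr1 rose, beside 1.13% of all genes called, 0.87% falling and 0.262% rising. For the mean of both inhibitors the same 6 genes as under JQ1 were called, 5 falling and 1 rising, beside 4.92% of all genes, 3.33% falling and 1.59% rising. The median log2 change of the 27 genes was 0.00 under JQ1 and -0.08 under I-BET151, beside 0.02 and 0.00 for all genes, and 13 of the 27 were below 0 under JQ1 and 14 under I-BET151, where 43% and 45.4% of all genes were.

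The calls rest on all 6 arrays entering 1 fit. With any 1 array left out, with only the compared groups in the fit, or with the replicate number as a block, none of the 24010 genes passed. With dim rows also left out, 14 members remained. The limit for dim rows uses the mean over all arrays, so a gene can pass it through its CTRL values. Adgrl4 and Adgrg2 did so, as their treated arrays alone average below the limit. Calls from these fits are therefore no separate support.

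**Figure D2:**
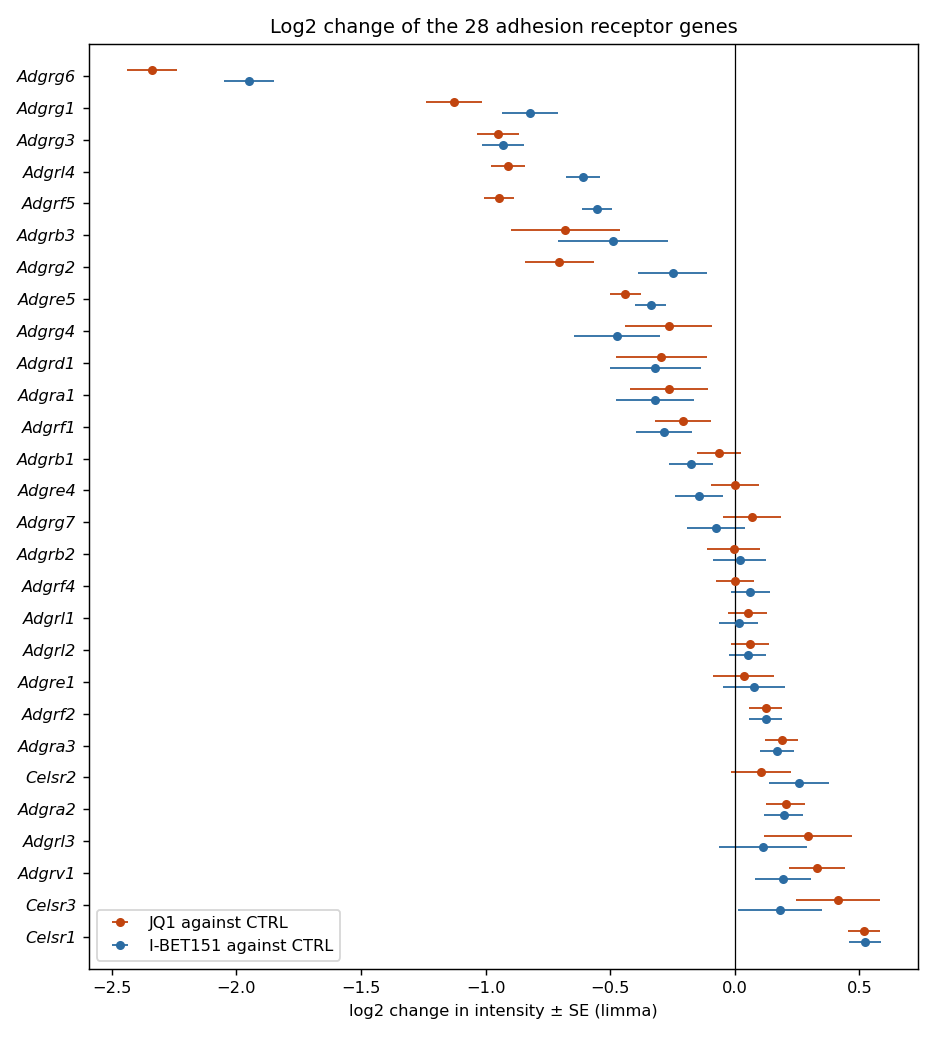
Log2 change in intensity with its SE (x axis) for each of the 28 adhesion receptor genes (y axis, ordered by the mean of both inhibitors), JQ1 against CTRL above I-BET151 against CTRL in each row. Adgrg6, which was chosen for its fall, lies at -2.34 and -1.95. The other members span -1.13 to 0.52 under JQ1 and -0.93 to 0.52 under I-BET151.

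Among the receptors linked with vessels, Adgrf5 and Adgrl4 fell. Adgrf5, also called Gpr116, is found on endothelium and restrains surfactant release in lung epithelium. It was measured at 145 and 145 under JQ1, 187 and 194 under I-BET151, and 273 and 286 in CTRL buds. The 3 groups did not overlap. With 2 arrays a group, treated and control arrays did not overlap for 44.9% of all genes under JQ1 and 42.1% under I-BET151. The log2 change was -0.95 ± 0.06 under JQ1 (limma adjusted p = 0.0116) and -0.55 ± 0.06 under I-BET151 (limma adjusted p = 0.0449). Adgrl4, also called Eltd1, is a receptor of endothelial cells. Its signal was 49 and 50 under JQ1, 59 and 63 under I-BET151, and 96 and 90 in CTRL buds. Both treated groups lay below the controls without overlap. It fell 1.88-fold under JQ1 (limma adjusted p = 0.0154) and 1.52-fold under I-BET151 (limma adjusted p = 0.0459).

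Endothelial markers were lower in the same arrays. Each of the 10 measured markers was below 0 on the log2 scale with JQ1 and with I-BET151. Of all genes, 43% were below 0 under JQ1 and 45.4% under I-BET151. The median changes of the markers were -0.45 under JQ1 and -0.34 under I-BET151. Under JQ1 5 of the 10 fell (Pecam1, Cdh5, Emcn, Tek and Eng), beside 2.67% of all genes. Under I-BET151 2 did (Tek and Eng), beside 0.87% of all genes. Their summed intensity was 4202 to 4316 under JQ1, 4481 to 4806 under I-BET151 and 6156 to 6297 in CTRL buds, and no defining marker was near the lowest value. Adgra2, also called Gpr124, which acts with Reck in Wnt7 signalling of brain vessels, was not called. It was measured at 919 and 960 under JQ1, 976 and 893 under I-BET151, and 784 and 847 in CTRL buds, so its values were higher on the treated arrays (adjusted p = 0.231 and 0.281 for JQ1 and I-BET151 in limma). The part of vessel content in these results was not tested.

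Adgrg1 and Adgrg3, which sit next to each other on chromosome 8 among the measured genes, were both lower. Adgrg1, also called Gpr56, binds collagen III and is needed for the layering of the brain cortex. It was measured at 180 and 223 under JQ1, 246 and 249 under I-BET151, and 433 and 442 in CTRL buds. Every treated array was below every control array. It fell 2.18-fold under JQ1 (log2 change -1.13 ± 0.11, limma adjusted p = 0.0217). Under I-BET151 its log2 change of -0.82 missed the threshold (limma adjusted p = 0.0609), but it was called there with arrays centred on their medians (limma adjusted p = 0.0298), with dim rows left out (limma adjusted p = 0.00638), with 16 added (limma adjusted p = 0.0382) and with a trended robust prior (limma adjusted p = 0.000923). These settings also raised the calls over all genes tested, from 272 to between 533 and 1806. It was not called with only the compared groups in the fit (limma adjusted p = 0.149) or with the replicate block (limma adjusted p = 0.136).

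Adgrg3, also called Gpr97, is best known from granulocytes. Its row was dim, at 30 and 29 under JQ1, 32 and 28 under I-BET151, and 56 and 58 in CTRL buds. The treated arrays lay close together and below both controls. It fell 1.93-fold under JQ1 (limma adjusted p = 0.0185) and 1.90-fold under I-BET151 (limma adjusted p = 0.0430). Its mean over the arrays is under the limit for dim rows, so it has no value in the fits that leave these out.

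The leukocyte receptor Adgre5, also called Cd97, binds the complement regulator Cd55. It was measured at 580 and 580 under JQ1, 604 and 642 under I-BET151, and 769 and 805 in CTRL buds. The groups treated with either compound lay below the controls. It fell 1.36-fold under JQ1 (limma adjusted p = 0.0402), and its log2 change of -0.34 under I-BET151 was not called (limma adjusted p = 0.0967). The JQ1 call was lost with arrays centred on their medians (limma adjusted p = 0.0554). With dim rows left out it was also lost without JQ1 replicate 1, JQ1 replicate 2 or CTRL replicate 2, at limma adjusted p of at most 0.0551.

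Adgre1 encodes F4/80, the marker that defines mouse macrophages. It was measured at 253 and 274 under JQ1, 282 and 261 under I-BET151, and 231 and 286 in CTRL buds, and the groups overlapped. The 7 macrophage markers, which leave Adgre1 out, summed to 2249 to 2359 under JQ1, 2522 to 2708 under I-BET151 and 2739 to 3078 in CTRL buds. Of these, 6 were below 0 on the log2 scale under each inhibitor, with medians of -0.45 under JQ1 and -0.24 under I-BET151. Over all genes, 43% were below 0 under JQ1 and 45.4% under I-BET151. The Fc receptor gene Fcgr1 fell under each inhibitor, at 98 and 106 under JQ1, 124 and 141 under I-BET151, and 277 and 286 in CTRL buds. The marker with values above 0 was the receptor gene Csf1r, at 633 and 700 under JQ1, 824 and 701 under I-BET151, and 540 and 592 in CTRL buds. The part of leukocyte content in the values of Adgre5 and Adgrg3 was not tested.

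Celsr1 was the only member called higher under either inhibitor. It is an atypical cadherin and a core component of planar cell polarity, the system that aligns cells within an epithelial sheet. Its signal was 224 and 233 under JQ1, 233 and 225 under I-BET151, and 155 and 164 in CTRL buds. The treated arrays of both compounds coincided and lay above both controls. It rose 1.43-fold under JQ1 (log2 change 0.52 ± 0.06, limma adjusted p = 0.0302) and 1.44-fold under I-BET151 (log2 change 0.52 ± 0.06, limma adjusted p = 0.0488). With dim rows left out, the I-BET151 call was lost without I-BET151 replicate 1 (limma adjusted p = 0.0534) or CTRL replicate 1 (limma adjusted p = 0.0559). Its relatives Celsr2 and Celsr3, which act in cilia and axon guidance, had log2 changes of 0.11 and 0.41 under JQ1 and 0.26 and 0.18 under I-BET151, none of them called.

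The 7 pancreatic epithelium markers summed to 6675 to 7200 under JQ1, 7151 to 7371 under I-BET151 and 7243 to 7463 in CTRL buds, and none was called. Their median log2 change was 0.03 under JQ1 and 0.01 under I-BET151.

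**Figure D3:**
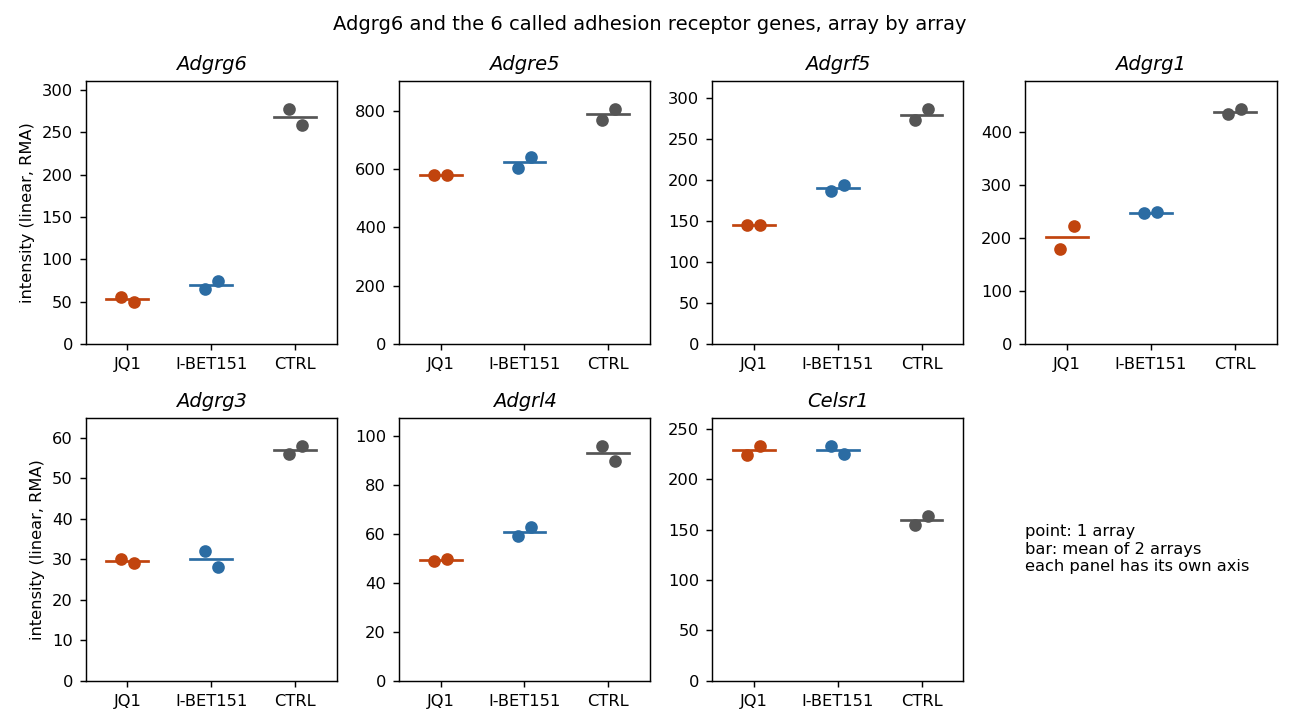
Linear RMA intensity (y axis, from 0 and separate for each gene) on each array under JQ1, I-BET151 and CTRL (x axis) for Adgrg6 and the 6 called members; points are arrays and bars are means of 2 arrays. Treated and control arrays do not overlap in any panel, with Celsr1 higher and the others lower on treated arrays. The genes were chosen for a fall or a call, so the separation follows from the choice. Of all genes, 44.9% did not overlap under JQ1 and 42.1% under I-BET151.

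The next 6 members by p for the mean of both inhibitors were Adgrg2, Adgrb3, Adgra3, Adgra2, Adgrv1 and Adgrf1, and none was called. Adgrg2, known for fluid balance in the epididymis, was measured at 46 and 43 under JQ1, 64 and 58 under I-BET151, and 82 and 64 in CTRL buds. The JQ1 arrays lay below the controls and I-BET151 reached them. Its log2 change of -0.70 under JQ1 had an adjusted p of 0.0708 in limma, and it was called there with dim rows left out (limma adjusted p = 0.0112). Its row passed the limit for dim rows only with its CTRL arrays counted, and calls over all genes also rose in that setting. That call is therefore no separate support. Adgrb3, which binds C1q-like proteins at synapses, was dim, at 25 and 24 under JQ1, 23 and 34 under I-BET151, and 35 and 44 in CTRL buds. All treated arrays lay below both controls, but those of I-BET151 were widely spread (limma adjusted p = 0.175 for JQ1 and 0.327 for I-BET151).

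Adgra3, also called Gpr125, was measured at 905 and 901 under JQ1, 911 and 873 under I-BET151, and 826 and 761 in CTRL buds, with all treated arrays above the controls and adjusted p of 0.210 and 0.281 for JQ1 and I-BET151 in limma. Adgrv1, a very large receptor of hair cell stereocilia, was dim at 29 and 24 under JQ1, 24 and 24 under I-BET151, and 20 and 22 in CTRL buds. Adgrf1 was near the low end of the scale, at 10 and 9 under JQ1, 9 and 9 under I-BET151, and 10 and 12 in CTRL buds, where 1 step of rounding is a large share of the value.

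The remaining 15 members had log2 changes between -0.29 and 0.41 under JQ1 and between -0.47 and 0.26 under I-BET151, with limma adjusted p of 0.252 or higher. Of all 28 members, 6 were within 0.1 of no change on the log2 scale under both inhibitors: Adgrb2, Adgre1, Adgrf4, Adgrg7, Adgrl1 and Adgrl2. The latrophilins Adgrl1, Adgrl2 and Adgrl3 are receptors for teneurins and FLRT proteins and were among the brighter rows. Adgrl2 was measured at 1151 and 1038 under JQ1, 1068 and 1104 under I-BET151, and 1071 and 1026 in CTRL buds, and the groups overlapped, although its neighbour on chromosome 3, Adgrl4, was called. Adgrl3 had 1 high array under JQ1, with 334 and 233 under JQ1, 245 and 247 under I-BET151, and 230 and 225 in CTRL buds. Adgrb1, a receptor for the uptake of dying cells, was dim at 35 and 31 under JQ1, 30 and 31 under I-BET151, and 36 and 33 in CTRL buds.

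Arrays of treated and control buds did not overlap for 18 of the 27 genes under JQ1, where 44.9% of all genes were so placed, and for 17 under I-BET151, where 42.1% were. Neighbouring genes on the chromosome were compared for Adgrg6 and the 6 called members, taking the nearest measured protein-coding gene on each side in RefSeq. Of these 14 neighbours, 5 were adhesion receptor genes themselves. None of the other 9 was called against CTRL. For Adgrg6 on chromosome 10 these were Hivep2, at 90 and 91 under JQ1, 83 and 86 under I-BET151, and 94 and 98 in CTRL buds, and Vta1, at 350 and 360 under JQ1, 354 and 351 under I-BET151, and 398 and 379 in CTRL buds. Their log2 changes lay between -0.08 and -0.18. Adgrl1, beside Adgre5 on chromosome 8, was at 756 and 788 under JQ1, 798 and 710 under I-BET151, and 735 and 754 in CTRL buds.

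The compounds were also set against each other, at their unequal doses. None of the 27 members, and no gene of 24010, was called between JQ1 and I-BET151 in limma. At an unadjusted p under 0.05 there were 4 of the 27, beside 6.71% of all genes. Adgrg6 was 1.31-fold lower under JQ1 than under I-BET151, with a log2 difference of -0.39 (95% interval -0.65 to -0.13, limma adjusted p = 0.718). For Adgrf5 the log2 difference was -0.39 (-0.55 to -0.24), for Adgrl4 -0.30 (-0.48 to -0.12) and for Adgrg1 -0.30 (-0.60 to -0.01). These 4 of the 7 genes had intervals wholly below 0 before adjustment for the number of genes. Among the other members Adgrg2 had such an interval too, with a log2 difference of -0.45 (-0.82 to -0.09, limma adjusted p = 0.720), the lowest of all 28. Adgre5 (-0.27 to 0.06), Adgrg3 (-0.24 to 0.20) and Celsr1 (-0.17 to 0.16) had intervals that included 0. Both comparisons against CTRL share the same 2 control arrays. Adgrg6 and the called members were picked by values on these same arrays, and more calls came under JQ1. That choice can shift their differences between the compounds, so the intervals are no separate test.

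Partners and signalling genes of the family were described from lists of known biology. Beside the counts below stand the shares over all genes. Under JQ1 2.67% fell and 1.13% rose, and under I-BET151 0.87% fell and 0.262% rose. Of 28 matrix and surface partners, Tgm2 and Rtn4rl1 fell under JQ1 and none was called under I-BET151. The list median log2 change was -0.07 under JQ1 and 0.03 under I-BET151. None of the ligands of Adgrg6 was called. The collagen IV gene Col4a1 was measured at 200 and 202 under JQ1, 210 and 198 under I-BET151, and 204 and 207 in CTRL buds. The prion protein gene Prnp, another known ligand, was at 694 and 639 under JQ1, 667 and 714 under I-BET151, and 662 and 670 in CTRL buds. The laminin gene Lama2 was at 63 and 54 under JQ1, 73 and 71 under I-BET151, and 56 and 68 in CTRL buds. The laminin genes Lamb1 and Lamc1 were higher on every treated array than on both CTRL arrays. Their log2 changes were 0.23 and 0.26 under JQ1 and 0.21 and 0.24 under I-BET151. Treated and control arrays overlapped for Col4a2.

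Tgm2, a transglutaminase that binds Adgrg1, was measured at 215 and 185 under JQ1, 259 and 281 under I-BET151, and 388 and 382 in CTRL buds. It fell by 0.95 on the log2 scale under JQ1 (limma adjusted p = 0.0217), and its -0.51 under I-BET151 was not called (limma adjusted p = 0.0959). Rtn4rl1, a Nogo receptor relative, was at 71 and 60 under JQ1, 75 and 68 under I-BET151, and 110 and 113 in CTRL buds. Cd55, the partner of Adgre5, was chosen after its values were seen. It was at 17 and 30 under JQ1, 28 and 50 under I-BET151, and 56 and 57 in CTRL buds, and it was not called, with treated arrays far apart (limma adjusted p = 0.145 under JQ1). Flrt2 and Reck had log2 changes of -0.30 and 0.28 under JQ1 and -0.28 and 0.33 under I-BET151, with no call.

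Among 10 planar polarity partners of the Celsr proteins, none was called under I-BET151. Under JQ1, Fzd3 and Dvl1 rose and Fzd6 fell. Fzd3, a Frizzled receptor of axon guidance and polarity, was measured at 707 and 682 under JQ1, 669 and 662 under I-BET151, and 456 and 504 in CTRL buds. Fzd6, the Frizzled receptor of hair follicle polarity, was at 164 and 138 under JQ1, 187 and 200 under I-BET151, and 279 and 289 in CTRL buds. The 2 receptors thus moved in opposite directions, with limma adjusted p of 0.0358 and 0.0252 under JQ1. Dvl1, an adaptor downstream of Frizzled, was at 198 and 216 under JQ1, 170 and 173 under I-BET151, and 155 and 146 in CTRL buds. Its relative Dvl3 was at 963 and 1046 under JQ1, 993 and 1021 under I-BET151, and 889 and 829 in CTRL buds, and Vangl2, a core polarity membrane protein, was at 390 and 396 under JQ1, 394 and 359 under I-BET151, and 382 and 317 in CTRL buds. Neither was called. The median log2 change of the list was 0.13 under JQ1 and 0.10 under I-BET151.

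Of 30 transduction genes, 2 rose and 2 fell under JQ1, and 1 rose and 1 fell under I-BET151. Prkar2b, a regulatory subunit of the cAMP-dependent kinase, rose under both: it was at 443 and 415 under JQ1, 386 and 412 under I-BET151, and 250 and 254 in CTRL buds (limma adjusted p = 0.0185 and 0.0432 for JQ1 and I-BET151). The adenylyl cyclase gene Adcy4 fell under both, at 64 and 67 under JQ1, 61 and 71 under I-BET151, and 116 and 120 in CTRL buds (limma adjusted p = 0.0241 and 0.0449). The guanine nucleotide exchange factor gene Arhgef11 rose and the arrestin gene Arrb1 fell under JQ1, with log2 changes of 0.53 and -0.48. The median log2 change of the list was 0.05 under JQ1 and 0.06 under I-BET151. The G protein genes were not called, and Gnas, which encodes the subunit that stimulates cAMP production, was at 175 and 169 under JQ1, 194 and 180 under I-BET151, and 192 and 190 in CTRL buds.

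**Figure D4:**
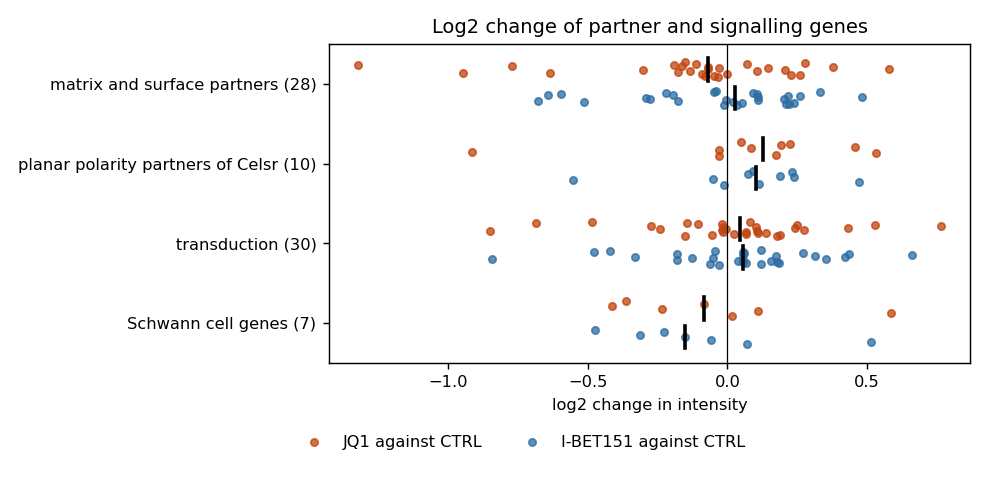
Log2 change in intensity (x axis) of each measured gene of 4 lists (y axis, number of genes in brackets), JQ1 against CTRL above I-BET151 against CTRL in each list; black bars are medians. The medians lie between -0.15 and 0.13, with single genes far to both sides.

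Adgrg6 is best known in the Schwann cell lineage, so genes of that lineage were read beside it. Of 9 listed Schwann cell genes, 7 were measured and none was called under either inhibitor, and the median log2 changes were -0.08 under JQ1 and -0.15 under I-BET151. Sox10 and Erbb3 are in this list and also among the precursor markers below, so it does not measure the response of Adgrg6 targets alone. Pou3f1, the factor of promyelinating Schwann cells, was at 82 and 78 under JQ1, 78 and 74 under I-BET151, and 59 and 48 in CTRL buds. The myelin gene Pmp22 was at 372 and 345 under JQ1, 400 and 368 under I-BET151, and 512 and 444 in CTRL buds. Erbb3, the neuregulin receptor of the lineage, was at 179 and 214 under JQ1, 169 and 194 under I-BET151, and 247 and 256 in CTRL buds, and the myelin gene Mbp had log2 changes of -0.23 under JQ1 and -0.15 under I-BET151. Egr2, the main regulator of myelin genes, was at 38 and 42 under JQ1, 44 and 39 under I-BET151, and 38 and 41 in CTRL buds.

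Markers of neural crest and Schwann cell precursors were mixed. Of 7 measured markers, 6 were below 0 on the log2 scale under each inhibitor, with medians of -0.36 under JQ1 and -0.45 under I-BET151. Over all genes, 43% were below 0 under JQ1 and 45.4% under I-BET151. The summed intensity of the markers was 1239 to 1364 under JQ1, 1293 to 1452 under I-BET151 and 2138 to 2156 in CTRL buds. Fabp7, a lipid-binding protein of glial precursors, was at 154 and 185 under JQ1, 191 and 317 under I-BET151, and 795 and 829 in CTRL buds. It was the brightest of the 7 rows in CTRL buds and had the largest drop, so it weighs most in the sum. Its log2 change was -2.27 under JQ1, where it was called (limma adjusted p = 0.0264), and -1.72 under I-BET151, where it was not (limma adjusted p = 0.0692). The endothelin receptor gene Ednrb fell under both, with log2 changes of -0.75 under JQ1 and -0.69 under I-BET151. The defining factors Sox10 and Foxd3 were not called: Sox10 was at 42 and 56 under JQ1, 45 and 43 under I-BET151, and 54 and 49 in CTRL buds, and Foxd3 at 69 and 74 under JQ1, 78 and 71 under I-BET151, and 75 and 84 in CTRL buds. Ngfr was higher on treated arrays, at 414 and 418 under JQ1, 412 and 393 under I-BET151, and 307 and 260 in CTRL buds, and it passed the threshold for the mean of both inhibitors but for neither alone (limma adjusted p = 0.0429). Cdh19 stayed between 11 and 19 on all arrays.

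The 9 mesenchyme markers were all below 0 on the log2 scale under each inhibitor, with medians of -0.54 under JQ1 and -0.48 under I-BET151. Over all genes, 43% were below 0 under JQ1 and 45.4% under I-BET151. Of the markers, Dcn, Postn, Prrx1 and Meox1 fell under JQ1, beside 2.67% of all genes. Dcn and Postn fell under I-BET151, beside 0.87%. Postn, a matrix protein, was at 115 and 104 under JQ1, 124 and 148 under I-BET151, and 489 and 550 in CTRL buds, with log2 changes of -2.25 under JQ1 and -1.94 under I-BET151, close in size to those of Adgrg6. The proteoglycan gene Dcn was at 97 and 76 under JQ1, 117 and 136 under I-BET151, and 315 and 302 in CTRL buds. The sums of the 9 markers were 5342 to 5544 under JQ1, 5855 to 5910 under I-BET151 and 7496 to 7833 in CTRL buds. The part of these cell types in the lower Adgrg6 signal was not tested.

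Of 5 mesothelium markers, Upk3b fell under JQ1 and none was called under I-BET151, and their sums were 1907 to 2075 under JQ1, 2174 to 2249 under I-BET151 and 2153 to 2223 in CTRL buds. Wt1 went the other way, at 1229 and 1112 under JQ1, 1227 and 1216 under I-BET151, and 919 and 911 in CTRL buds. It was called for the mean of both inhibitors (limma adjusted p = 0.0436) but for neither alone. Of 6 measured endocrine markers, Neurod1 rose under JQ1 and none was called under I-BET151, and their sums were 6830 to 7313 under JQ1, 7073 to 7570 under I-BET151 and 7073 to 7164 in CTRL buds. None of 5 liver or 3 measured erythroid markers was called. The liver gene Alb differed widely between arrays of a group, at 43 and 753 under JQ1, 35 and 421 under I-BET151, and 179 and 58 in CTRL buds. Fgb, another liver gene, was lower on every treated array than on both CTRL arrays, with log2 changes of -1.49 under JQ1 and -1.52 under I-BET151 (limma adjusted p = 0.108 and 0.139 for JQ1 and I-BET151).

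**Figure D5:**
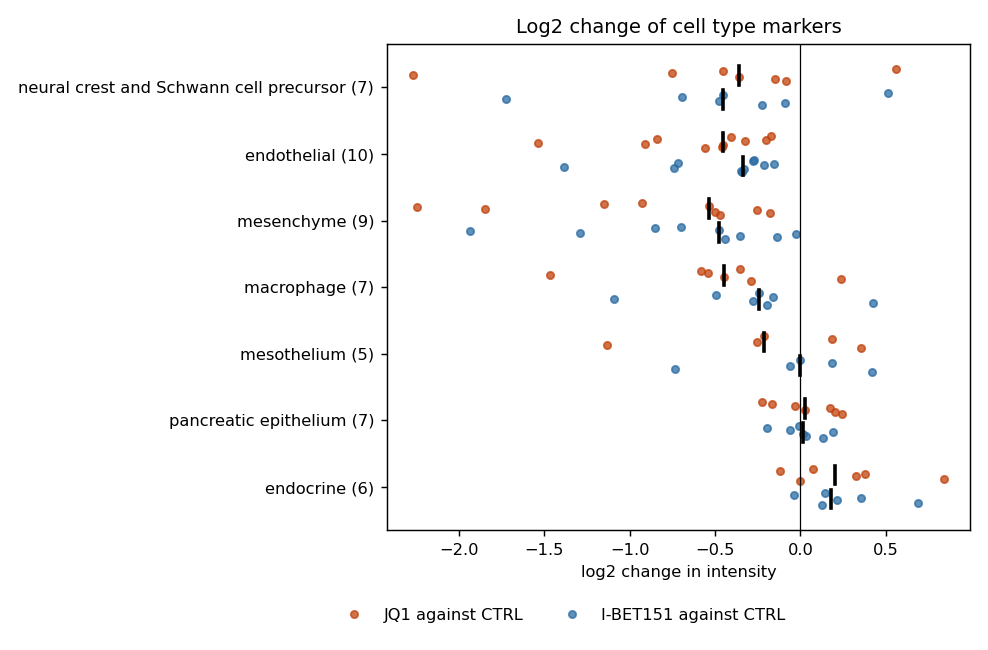
Log2 change in intensity (x axis) of each measured marker of 7 cell types (y axis, number of markers in brackets), JQ1 against CTRL above I-BET151 against CTRL in each list; black bars are medians. All 10 endothelial and all 9 mesenchyme markers lie below 0, while the medians of the pancreatic epithelium lie at 0.03 and 0.01. Over all genes, 43% lie below 0 under JQ1 and 45.4% under I-BET151.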

How the data were processed

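RNA of each pool of buds was amplified, labelled with biotin and hybridised to 1 Affymetrix array, per the labels' protocols. The authors deposited intensities on a linear scale after RMA, per the submitters' processing notes, without a version. The build and probe annotation are not given in the sources used here. Quantile scaling within RMA makes arrays alike, so a change shared by most genes would not be fully seen. The deposited medians were still lower on treated than on CTRL arrays, and centring on them shifted the balance of rises and falls.

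Of 24972 rows, 24014 had a gene in the platform annotation, 958 were not listed there and 23921 matched RefSeq (GRCm38.p6), which gave current symbols. For 4 symbols with several rows the brightest was kept, leaving 24010 genes. The log2 intensities, with no pseudocount and no filter, were fitted with limma 3.58.1 in R 4.3.3 (all 6 arrays, group means, default eBayes, 3 residual and 1.76 prior degrees of freedom), and p-values were adjusted over all genes. A further contrast tested the mean of both inhibitors against CTRL. The fit was tested on simulated data. The 95% intervals are for single genes.

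The members and lists were chosen with earlier results of these data known. Adgrg6, called members and the next 6 by p were given array by array; in the lists (partners, planar polarity, transduction, Schwann and cell type markers), called genes and up to 4 with the smallest p were named, with others for their role, chosen after values were seen. Dim rows are those with a mean under 56.4 over all arrays, CTRL included. Alternatives changed the scaling, offset, filter, prior, samples and block. With 2 arrays per group the number of arrays limits the precision. Promoter windows came from RefSeq.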

Additional observations from a re-analysis of the deposited data

How the results depend on the processing

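Directions held for all 6 called members in all 297 combinations of comparison against CTRL and alternative, while calls did not. The number called of the 27 members was 0 for JQ1 and for I-BET151 against CTRL when only the compared groups were fitted, and 0 for JQ1, I-BET151 and the mean of both with the replicate block. Without 1 array and with all rows kept, it ranged from 0 to 0 for each (limma adjusted p of the called genes 0.0724 to 0.261). With dim rows left out too, 14 members could be tested without 1 array. Among them were genes that pass this filter only with their CTRL arrays counted. Centring, the offset of 16, the dim-row filter and the trended robust prior gave 5 to 6 calls for I-BET151 and 6 to 8 for JQ1. JQ1 against I-BET151 had 0 in every setting, and the trended robust prior called 6 of all genes there. Calls over all genes reached 1806 for I-BET151 and 2617 for JQ1 under that prior, against 272 and 912. The offset gave 661 and 1615. Dim-row filtering, which leaves 12005 genes, gave 1438 and 2373. After median centring of arrays, 664 genes rose and 727 fell under JQ1, against 272 and 640, and 183 rose and 350 fell under I-BET151, against 63 and 209.

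Adgrg6 moved to -2.04 under JQ1 and -1.73 under I-BET151, and to -1.89 for the mean of both, with 16 added before log2. This follows from the offset, which shrinks changes of low values. The JQ1 minus I-BET151 difference, near 0 and not called, changed sign for Celsr1 with centring (0.010), without JQ1 replicate 1 (0.0252) and without I-BET151 replicate 1 (0.0220), with or without dim rows in the last pair, and ranged from -0.0316 to 0.0252 over arrays left out. For Adgrg3 it changed sign without JQ1 replicate 2 (0.0032) or I-BET151 replicate 1 (0.0751), in a range of -0.118 to 0.0751. Same-numbered deviations correlated at -0.016 to -0.0399 between groups over all genes, which cannot show whether pools of the same number shared a litter or culture day. All listed liver markers were higher in replicate 2 than in replicate 1 under both inhibitors, while in CTRL buds only Ttr was. The block, leaving out 1 array and fitting only the compared groups each remove 1 residual degree of freedom. The cause of the lost calls was not tested. Signal over background limits the 13 dim members, where rounding sets the smallest step.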
